A study of Mus musculus with 12 samples.

Results

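Collagen genes were followed here in gonadal white adipose tissue (GWAT) of mice whose adipocytes lack HOIP, on a control and on a high-fat diet. Members were all protein-coding genes with a symbol made of Col, a type number, the letter a and a chain number, which gave 44 of the 21646 genes in the table. Of these, 11 encode fibrillar collagens, 6 encode chains of the basement membrane collagen type IV, 6 encode chains of the microfibrillar collagen type VI, and 21 belong to other types. A total of 38 members passed the filter on low counts and were tested, among 15617 genes tested.

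RNA-seq of whole GWAT was performed on 12 libraries from male mice, each made from RNA pooled from 3 animals, with 3 libraries in each of 4 groups. All animals carried the floxed Hoip fl/fl alleles. HoipA-KO mice were AdipoQ.Cre+, so recombination is driven by an adipocyte promoter while the bulk tissue also holds vessels, stromal and immune cells, and WT mice were their AdipoQ.Cre- controls. From 6 weeks of age, mice received a control diet (CD, 14% fat per the labels, where the study's methods state a slightly lower content) or a high-fat diet (HFD, 60% fat) for 16 weeks, and tissue was taken at 22 to 24 weeks of age.

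Collagens are built from alpha chains that wind into a triple helix, and each chain has a gene of its own. Fibrillar collagens assemble into the tensile fibres of the interstitial matrix, type IV collagen forms the sheet-like network of basement membranes, and type VI collagen forms beaded microfilaments that link cells to both. In adipose tissue every adipocyte is wrapped in a basement membrane, whereas collagens I, III and VI are the main interstitial collagens and are made chiefly by fibroblast-like cells.

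The promoters of 4 members are shown because their genes stand for the contrast described below: Col1a2 and Col3a1 encode interstitial fibrillar chains, and Col4a1 and Col4a2 encode the abundant basement membrane chains. The windows come from RefSeq (GRCm38.p6), run from 250 bases before to 50 bases after the start site, and are written 5′ to 3′ on the strand of the gene. Capitals mark the motifs searched on either strand, which were TATAAA (the core of a TATA-type promoter), CCAAT (bound by the factor NF-Y) and GGGCGG (bound by factors of the Sp family). They lie at chr6:4505368-4505667 (plus strand) for Col1a2, chr1:45311288-45311587 (plus) for Col3a1, chr8:11312777-11313076 (minus) for Col4a1 and chr8:11312555-11312854 (plus) for Col4a2.
Col1a2: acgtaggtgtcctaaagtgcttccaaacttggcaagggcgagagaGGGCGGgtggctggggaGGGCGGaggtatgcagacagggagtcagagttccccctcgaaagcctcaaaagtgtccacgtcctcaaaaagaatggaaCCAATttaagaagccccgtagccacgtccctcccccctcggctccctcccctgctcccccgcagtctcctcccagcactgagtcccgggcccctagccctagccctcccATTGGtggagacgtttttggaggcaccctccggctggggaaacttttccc
Col3a1: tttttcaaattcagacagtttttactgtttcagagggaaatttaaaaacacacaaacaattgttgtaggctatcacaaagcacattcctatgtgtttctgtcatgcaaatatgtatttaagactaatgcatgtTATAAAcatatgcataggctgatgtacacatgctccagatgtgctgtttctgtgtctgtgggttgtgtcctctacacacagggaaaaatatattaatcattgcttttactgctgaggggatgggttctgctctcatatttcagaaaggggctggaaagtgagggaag
Col4a1: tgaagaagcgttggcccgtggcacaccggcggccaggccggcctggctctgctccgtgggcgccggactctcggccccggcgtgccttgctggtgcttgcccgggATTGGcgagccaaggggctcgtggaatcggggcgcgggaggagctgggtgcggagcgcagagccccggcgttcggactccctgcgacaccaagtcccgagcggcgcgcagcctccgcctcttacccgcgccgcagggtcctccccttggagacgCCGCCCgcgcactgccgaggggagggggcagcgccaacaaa
Col4a2: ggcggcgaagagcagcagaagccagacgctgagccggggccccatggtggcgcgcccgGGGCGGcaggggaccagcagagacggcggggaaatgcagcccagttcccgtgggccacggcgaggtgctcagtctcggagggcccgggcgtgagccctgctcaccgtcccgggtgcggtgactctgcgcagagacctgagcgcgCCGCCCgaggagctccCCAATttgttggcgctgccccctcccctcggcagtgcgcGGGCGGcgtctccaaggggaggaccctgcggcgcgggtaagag

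The Col1a2 window held CCAAT 2 times and GGGCGG 2 times, and the Col3a1 window held TATAAA 1 time and neither of the other motifs. Col4a1 and Col4a2 lie head to head on chromosome 8, with annotated start sites 21 bases apart, so that their windows share 78 bases and 1 GGGCGG match. Among 38 windows of 35 collagen genes, 13.2% held TATAAA, 34.2% CCAAT and 60.5% GGGCGG. Over all 32851 promoter windows of the same length, the shares were 13.6%, 37.4% and 35.7%. These matches describe letters in the windows only.

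Protein-coding counts per library ranged from 28787571 to 57182202, so that the floor of 3 counts corresponded to 0.0548 to 0.105 CPM (counts scaled to a common library size). Levels below are CPM normalised by the trimmed mean of M values (TMM), listed in the order of replicates 1, 2 and 3. Transcripts of Rnf31, the gene that encodes HOIP, were at 22.2, 22.4 and 12.8 CPM in WT on CD, 19.4, 19.1 and 20.9 in WT on HFD, 18.8, 18.2 and 22.9 in HoipA-KO on CD and 21.0, 19.4 and 23.5 in HoipA-KO on HFD, so the whole-tissue level of the targeted gene did not separate the genotypes. Gene counts do not show whether reads fell in the floxed exons. WT CD replicate 3 stood apart: 2106 genes were more than 8 times above all other libraries. Its log-CPM correlation with the other WT CD libraries was 0.739 and 0.743. Between those it was 0.890, below the 0.966 to 0.992 within the other groups. WT CD replicate 2 had 263 genes more than 8 times above all other libraries, with 7.15% of its counts. The study's deposited comparisons left WT CD replicate 3 out. Tests were therefore run on 11 libraries, with results for 12 libraries beside them. WT CD replicate 2 held 16744 CPM of 13 epididymal epithelium markers (111 and 114 CPM in HoipA-KO CD replicate 3 and HoipA-KO HFD replicate 3, 1371 in HoipA-KO HFD replicate 1, 156 in WT CD replicate 3, at most 6.93 elsewhere), and HoipA-KO HFD replicate 1 held 153 CPM of 7 skeletal muscle markers (at most 70.2 elsewhere).

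Collagen transcripts were lowest in WT on CD and differed in make-up between the 4 groups. Summed over all members, collagen transcripts were at 6249, 3039 and 3212 CPM in WT on CD, 9831, 13676 and 15058 CPM in WT on HFD, 10741, 15495 and 12124 CPM in HoipA-KO on CD, and 15811, 14414 and 14384 CPM in HoipA-KO on HFD. All 3 WT CD libraries lay below the other 9, which overlapped among groups. Fibrillar transcripts made up 37.2% ± 2.49 (SD, n = 3) of collagen CPM in WT on CD, 45.9% ± 4.09 in WT on HFD, 53.9% ± 4.33 in HoipA-KO on CD and 56.9% ± 1.61 in HoipA-KO on HFD. The basement membrane share moved the other way, from 32.3% ± 1.79 to 25.6% ± 3.43, 18.4% ± 0.732 and 15.5% ± 1.39, with no overlap between the 4 groups. Type VI chains took 14.4% ± 0.410, 18.4% ± 0.732, 20.3% ± 3.26 and 20.0% ± 0.720, and the remaining types 16.1% ± 3.79, 10.0% ± 1.39, 7.41% ± 0.524 and 7.52% ± 0.527.

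**Figure D1:**
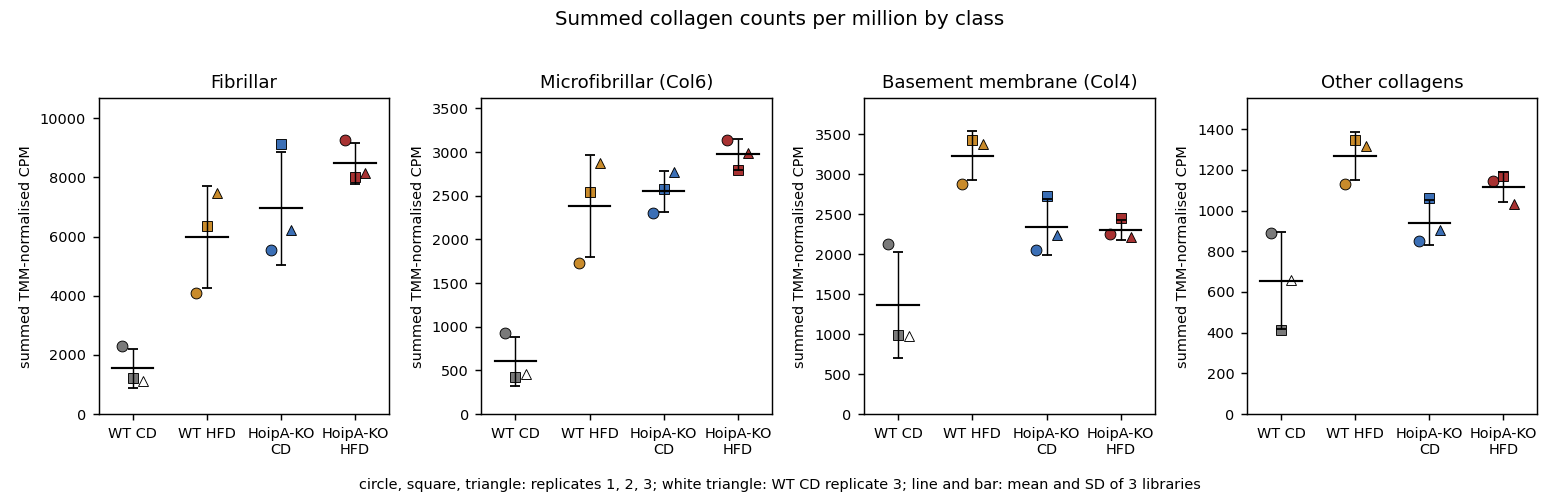
Summed TMM-normalised CPM of the fibrillar, basement membrane, microfibrillar and other collagens in each library, by group, with the mean ± SD of 3 libraries as a line and bar. Circles, squares and triangles are replicates 1, 2 and 3, and the white triangle is WT CD replicate 3. Fibrillar sums ran from 1120 to 2310 CPM in WT on CD and from 4090 to 9278 CPM in the other groups, whereas basement membrane sums on HFD were lower in HoipA-KO (2218 to 2447 CPM) than in WT (2875 to 3430 CPM).

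On CD, the fibrillar sum was 4.65-fold higher and the type VI sum 4.50-fold higher in HoipA-KO than in WT, without overlap, while the basement membrane sum was 1.83-fold higher with overlapping groups. On HFD, the fibrillar sum was 1.46-fold higher in HoipA-KO and the basement membrane sum was 0.715 of the WT level, both without overlap. With 3 libraries against 3 a two-sided exact permutation test cannot go below p = 0.1, the value it gave for each of these differences without overlap.

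The order of the collagens by level per length changed as well. Per 1000 exon bases, Col4a1 and Col4a2 led in WT on CD with 108 ± 53.1 and 77.6 ± 41.0 CPM (SD, n = 3). Col3a1 followed with 56.4 ± 22.5 CPM. The spreads between libraries overlapped, while within each WT CD library Col4a1 was above Col4a2 and Col4a2 above Col3a1. Col3a1 had the highest mean per length in the other groups, with 274 ± 105 CPM in WT on HFD, 323 ± 120 in HoipA-KO on CD and 370.9 ± 28.9 in HoipA-KO on HFD. In WT on HFD it did not stand above Col4a1 beyond the spread (257 ± 33.0 CPM per 1000 bases, and 219 against 159 in replicate 1). On each diet every Col3a1 value in HoipA-KO was above every Col4a1 value there. Col1a1 took rank 9 in WT on CD (21.8 ± 5.64 CPM per 1000 bases), rank 5 in WT on HFD (128 ± 37.2), rank 4 in HoipA-KO on CD (168 ± 41.8) and rank 2 in HoipA-KO on HFD (246 ± 28.7). Its range in HoipA-KO on HFD, 219 to 276, lay above the range of Col4a1 there, 172 to 190.1.

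Genes were called at an adjusted p under 0.05, taken from the quasi-likelihood F-test of edgeR and corrected by the Benjamini-Hochberg method across every gene in the fit. Differences below are log2 fold changes with an SE. This SE is the absolute log2 fold change divided by the square root of its F statistic. Because libraries are pools, p-values measure the spread between pools, and nothing in the labels says whether the pools were processed separately. The comparisons share libraries, the WT CD libraries entering both the genotype comparison on CD and the diet comparison in WT, and are not independent of each other. Where WT CD replicate 1 or 2 was left out of the 11 libraries, a single WT CD library remained. The fit then holds no spread within WT CD, so a call lost or kept there cannot be judged against it. Without TMM scaling, the median of all genes shifted by 0.14 for the genotypes on CD and by 0.12 for the diets in WT on the log2 scale, and the median of the members from 0.78 to 0.91 and from 0.54 to 0.68.

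The first comparison asked which collagens differ between HoipA-KO and WT mice on CD. Of 38 members tested, 15 were higher in HoipA-KO and 3 were lower, where 18.1% of all genes tested were called higher and 23.9% lower. With all 12 libraries, 13 were higher and 3 lower, against 15.8% and 19.0% of all genes. The median log2 fold change was 0.78 over the members and -0.16 over all genes tested.

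Fibrillar chains were higher in HoipA-KO on CD, with 5 of 10 tested members called higher, none lower by edgeR, DESeq2 or an unadjusted p under 0.05, and a median log2 fold change of 1.17. Col1a1, which encodes the main chain of type I collagen (chromosome 11, 94936224 to 94953042), was at 183, 136 and 109.9 CPM in WT and at 855, 1398 and 1051 CPM in HoipA-KO. Every HoipA-KO library was above every WT library. The log2 fold change was 2.73 ± 0.32 (adjusted p = 0.00045). Col1a2, the partner chain of type I collagen (chromosome 6, 4504814 to 4541544), was at 336, 233 and 223 CPM in WT and 1421, 1908 and 1538 CPM in HoipA-KO, again without overlap (2.46 ± 0.28, adjusted p = 0.00043). Col3a1 (chromosome 1, 45311538 to 45349706), whose product forms the thin reticular fibres that often accompany type I, was at 803, 479 and 380.3 CPM in WT and 2381, 4524 and 2606 CPM in HoipA-KO (2.26 ± 0.42, adjusted p = 0.00279). Both of the first type V chains, which start and limit the width of type I fibrils, were also higher: Col5a1 by 1.07 ± 0.29 and Col5a2 by 1.88 ± 0.38 (adjusted p = 0.0164 and 0.00433). All 5 calls were kept with 12 libraries, but that of Col5a1 was lost without WT CD replicate 2 or HoipA-KO CD replicate 2 (adjusted p = 0.0734 and 0.0544).

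Col5a3, the third type V chain, did not follow. It was at 651, 203 and 199 CPM in WT on CD and 299.9, 412 and 404 CPM in HoipA-KO on CD. WT CD replicate 1 alone was above all HoipA-KO libraries and the other WT CD libraries were below them (-0.22 ± 0.37, adjusted p = 0.654). With WT CD replicate 1 as the only WT CD library the log2 fold change was -0.80. With WT CD replicate 2 as the only WT CD library the sign turned (0.90).

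**Figure D2:**
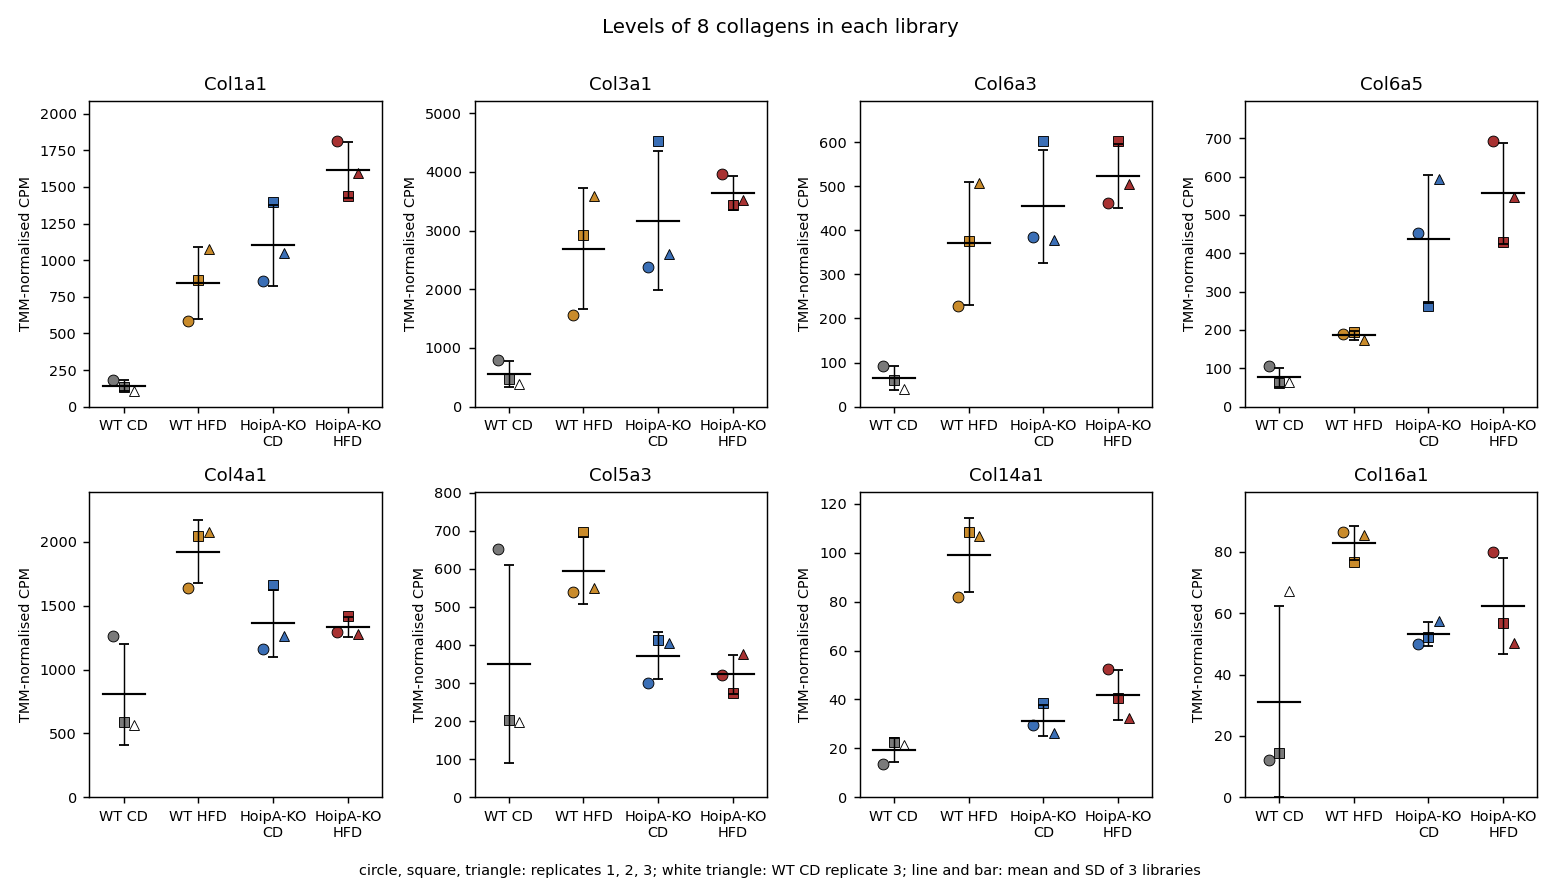
TMM-normalised CPM of 8 collagens in each library on linear axes, by group, with the mean ± SD of 3 libraries as a line and bar and the same symbols as in the plot of class sums. Col1a1 runs from 109.9 to 183 CPM in WT on CD and from 1438 to 1813 CPM in HoipA-KO on HFD, and Col14a1 is highest in WT on HFD, at 81.8 to 109 CPM.

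Among the type VI chains, 4 of 6 were higher on CD and none lower, with a median log2 fold change of 1.68. Col6a1 and Col6a2, neighbours on chromosome 10 whose products enter the same heterotrimer, were at 334, 145 and 156 CPM and at 362, 146 and 166 CPM in WT. In HoipA-KO they reached 686, 827 and 800.1 CPM and 729, 860.2 and 949 CPM, with no overlap for either gene (1.65 ± 0.32 and 1.70 ± 0.36, adjusted p = 0.00321 and 0.00496). Their ratio stayed within 0.843 and 0.995 over all 12 libraries. Col6a3 (chromosome 1, 90765923 to 90843971), whose chain releases the cleavage product endotrophin, was at 93.0, 60.4 and 40.7 CPM in WT and 385, 602 and 377 CPM in HoipA-KO (2.52 ± 0.37, adjusted p = 0.00094). Col6a5, whose chain can take the place of the Col6a3 chain in the trimer (chromosome 9, 105856078 to 105960643), was at 106, 62.2 and 63.2 CPM in WT and 452, 262 and 595 CPM in HoipA-KO (2.33 ± 0.36, adjusted p = 0.00120). Each of these 4 genes kept its call with 12 libraries and when any library outside WT CD was left out. Col6a6, at 30.7, 12.6 and 16.0 CPM in WT and 50.8, 26.9 and 51.0 CPM in HoipA-KO, was not called (0.95 ± 0.38, adjusted p = 0.0689). It was called with 12 libraries (1.10, adjusted p = 0.0364) and without HoipA-KO CD replicate 2 (adjusted p = 0.0334). Without WT CD replicate 1 its log2 fold change was 1.79.

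Of 6 basement membrane chains, 1 was higher and 2 were lower on CD, beside 18.1% and 23.9% of all genes. These counts do not set the class apart from all genes. Col4a1 and Col4a2, which form the widespread type IV trimer, were at 1264, 593 and 562 CPM and at 827, 355 and 359 CPM in WT, against 1164, 1661 and 1261 CPM and 838, 1029 and 932 CPM in HoipA-KO. WT CD replicate 1 lay within or just below the range of the HoipA-KO libraries and the other WT CD libraries far below it, and neither gene was called (0.52 ± 0.28 and 0.62 ± 0.28, adjusted p = 0.169 and 0.0958). Without WT CD replicate 1, which left WT CD replicate 2 as the only WT CD library, the log2 fold changes were 1.23 and 1.42. Col4a5, an X-linked chain, was higher, at 16.4, 12.5 and 16.3 CPM in WT and 28.0, 28.3 and 30.5 CPM in HoipA-KO (0.94 ± 0.23, adjusted p = 0.0102), a call lost without WT CD replicate 2 (adjusted p = 0.0570).

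Col4a3 and Col4a4 encode chains of the trimer best known from the kidney filter, and their start sites lie 72 bases apart in opposite directions on chromosome 1. Col4a3 was at 2.19, 6.58 and 9.63 CPM in WT and 1.19, 0.512 and 0.729 CPM in HoipA-KO (-2.54 ± 0.72, adjusted p = 0.0188). Col4a4 was at 5.05, 13.0 and 20.2 CPM in WT and 2.69, 1.46 and 2.66 CPM in HoipA-KO (-2.10 ± 0.64, adjusted p = 0.0269). Both were lower in every HoipA-KO library, with WT CD replicate 1 the lowest of the WT libraries. Without WT CD replicate 2, HoipA-KO CD replicate 2 or HoipA-KO CD replicate 3 neither was called (adjusted p = 0.0553 to 0.183 for Col4a3), and Col4a4 was also lost without HoipA-KO CD replicate 1 (0.0541 to 0.228). Col4a6, another X-linked chain, was at 8.62, 7.13 and 9.62 CPM in WT and 11.9, 6.20 and 10.2 CPM in HoipA-KO, and the groups overlapped (0.20 ± 0.63, adjusted p = 0.820).

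Of the 16 other collagens tested, 5 were higher on CD and 1 was lower. Col8a1 and Col8a2 encode the short network-forming type VIII chains found under endothelium. Col8a1 was at 8.31, 6.56 and 5.52 CPM in WT and 46.5, 32.4 and 15.7 CPM in HoipA-KO (2.03 ± 0.61, adjusted p = 0.0248), and Col8a2 at 1.64, 3.85 and 5.26 CPM in WT and 9.16, 6.89 and 7.63 CPM in HoipA-KO (1.42 ± 0.41, adjusted p = 0.0207). Neither overlapped, but the Col8a1 call was lost without any of WT CD replicates 1 and 2 and HoipA-KO CD replicates 1 and 2 (adjusted p = 0.0552 to 0.113), and that of Col8a2 with 12 libraries (0.0616) and without WT CD replicate 1 or HoipA-KO CD replicate 1 (0.0556 to 0.0593). Col18a1, a basement membrane multiplexin whose end fragment is endostatin, was at 218, 120.4 and 124 CPM in WT and 256, 335 and 298 CPM in HoipA-KO (0.76 ± 0.24, adjusted p = 0.0296). All HoipA-KO libraries were higher, and the call was lost without WT CD replicate 2, WT HFD replicate 2, HoipA-KO CD replicate 2 or HoipA-KO CD replicate 3 (adjusted p = 0.0519 to 0.195). Its relative Col15a1, at 607, 210.2 and 217 CPM in WT and 419.8, 564 and 467 CPM in HoipA-KO, was not called (0.21 ± 0.33, adjusted p = 0.629). Without WT CD replicate 1 its log2 fold change was 1.23.

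FACIT collagens do not form fibrils but sit on the surface of those that do. Col16a1 was at 12.1, 14.4 and 67.1 CPM in WT and 50.1, 52.1 and 57.6 CPM in HoipA-KO, so that WT CD replicate 3 alone was above the HoipA-KO libraries. It was called higher over 11 libraries (1.94 ± 0.21, adjusted p = 0.00041) and not over 12 (0.72, adjusted p = 0.323). Col12a1, at 4.22, 8.09 and 9.23 CPM in WT and 17.0, 20.9 and 12.8 CPM in HoipA-KO, and Col14a1, at 13.7, 22.6 and 21.4 CPM in WT and 29.7, 38.4 and 26.1 CPM in HoipA-KO, did not overlap and were not called (1.37 ± 0.57 and 0.71 ± 0.29, adjusted p = 0.0794 and 0.0799). Col12a1 was called without HoipA-KO HFD replicate 1 (adjusted p = 0.0104). Without WT CD replicate 2 the log2 fold change of Col14a1 was 1.205.

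The second comparison asked the same of HFD. Here 4 of 38 members were higher in HoipA-KO and 1 was lower, where 5.03% of all genes tested were called higher and 10.1% lower. With 12 libraries 1 was higher and 1 lower, against 0.588% and 2.37%. The median log2 fold change was 0.46 over the members and 0.03 over all genes. The 5 calls stood beside 2370 of all genes. They became 1 and 0 without WT HFD replicate 1 or 2 (556 and 573 of all genes) and 2 without HoipA-KO CD replicate 1 (1398). Without HoipA-KO HFD replicates 1, 2 and 3 they became 3, 2 and 1 (2023, 648 and 656).

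Col1a1 was at 587, 868 and 1074 CPM in WT on HFD and at 1813, 1438 and 1597 CPM in HoipA-KO on HFD (0.93 ± 0.25, adjusted p = 0.0392). Col1a2 was at 849, 1127 and 1443 CPM and at 2400.0, 2069 and 1927 CPM (0.90 ± 0.23, adjusted p = 0.0309). Both type I chains were higher in every HoipA-KO library, whereas with 12 libraries neither was called (adjusted p = 0.0937 and 0.0783). Without WT HFD replicate 1 or 2, HoipA-KO CD replicate 1 or any HoipA-KO HFD replicate both calls were lost, and that of Col1a1 also without HoipA-KO CD replicate 3 (adjusted p = 0.0511 to 0.133 for Col1a1 and 0.0501 to 0.113 for Col1a2). Col3a1, at 1559, 2922 and 3589 CPM in WT and 3964, 3433 and 3524 CPM in HoipA-KO, overlapped (0.43 ± 0.34, adjusted p = 0.399). Col5a1 and Col5a2 overlapped too, at 333, 390.2 and 413 CPM against 349.5, 333 and 337 CPM and at 217, 345 and 409 CPM against 408, 443 and 362 CPM. Col5a3 was at 538, 697 and 550.3 CPM in WT and 320.4, 273 and 375 CPM in HoipA-KO, without overlap, and was not called (-0.89 ± 0.34, adjusted p = 0.0994). Without WT CD replicate 1 or 2 its log2 fold change was -0.89 as well.

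Type VI chains parted on HFD. Col6a5 was at 189.6, 195 and 173 CPM in WT and 693, 429 and 546 CPM in HoipA-KO, with every HoipA-KO library above every WT library (1.57 ± 0.30, adjusted p = 0.0128, and 0.0362 with 12 libraries). The call was lost without WT HFD replicate 1 or 2 (adjusted p = 0.0516 to 0.0542). Col6a1, at 638, 903 and 1035 CPM in WT and 924, 842 and 896 CPM in HoipA-KO, Col6a2, at 646, 1039 and 1134 CPM against 1013, 886 and 989 CPM, and Col6a3, at 229, 375 and 508 CPM against 461, 602 and 504 CPM, all overlapped (0.04 ± 0.27, 0.03 ± 0.30 and 0.49 ± 0.30, adjusted p = 0.924, 0.952 and 0.278). The ratio of Col6a5 to Col6a1 was 0.167 to 0.297 in WT and 0.510 to 0.750 in HoipA-KO on HFD, a difference of 2.79-fold (two-sided exact permutation test, p = 0.1, the smallest possible).

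No basement membrane chain was called on HFD by edgeR or DESeq2, 1 of 6 was lower at an unadjusted p under 0.05, and the median log2 fold change of the 6 was -0.49. Col4a1 was at 1638, 2048 and 2078 CPM in WT and 1296, 1419 and 1280.5 CPM in HoipA-KO, and Col4a2 at 1189, 1328 and 1272 CPM and at 890.3, 995 and 908 CPM. Every HoipA-KO library was below every WT library for both genes, but the differences missed the threshold (-0.53 ± 0.25 and -0.44 ± 0.24, adjusted p = 0.166 and 0.226). Without WT CD replicate 2 the log2 fold change of Col4a2 was -0.44 as well. Col4a6 was at 10.8, 10.9 and 2.88 CPM in WT on HFD and 21.2, 7.42 and 6.54 CPM in HoipA-KO on HFD, with overlap (0.50 ± 0.56, adjusted p = 0.549). Col14a1, a FACIT collagen of interstitial fibrils, was the 1 member called lower: it was at 81.8, 109 and 107 CPM in WT and 52.4, 40.8 and 32.4 CPM in HoipA-KO (-1.25 ± 0.26, adjusted p = 0.0169, and 0.0374 with 12 libraries). The groups did not overlap, and the call was lost without WT HFD replicate 2, HoipA-KO HFD replicate 2 or HoipA-KO HFD replicate 3 (adjusted p = 0.0633 to 0.0654). Leaving out HoipA-KO HFD replicate 1 also made a call of Col16a1, which was lower (-0.60, adjusted p = 0.0396). Without WT CD replicate 1 or 2 the log2 fold change was 1.08 for Col8a2 and 1.13 for Col27a1.

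**Figure D3:**
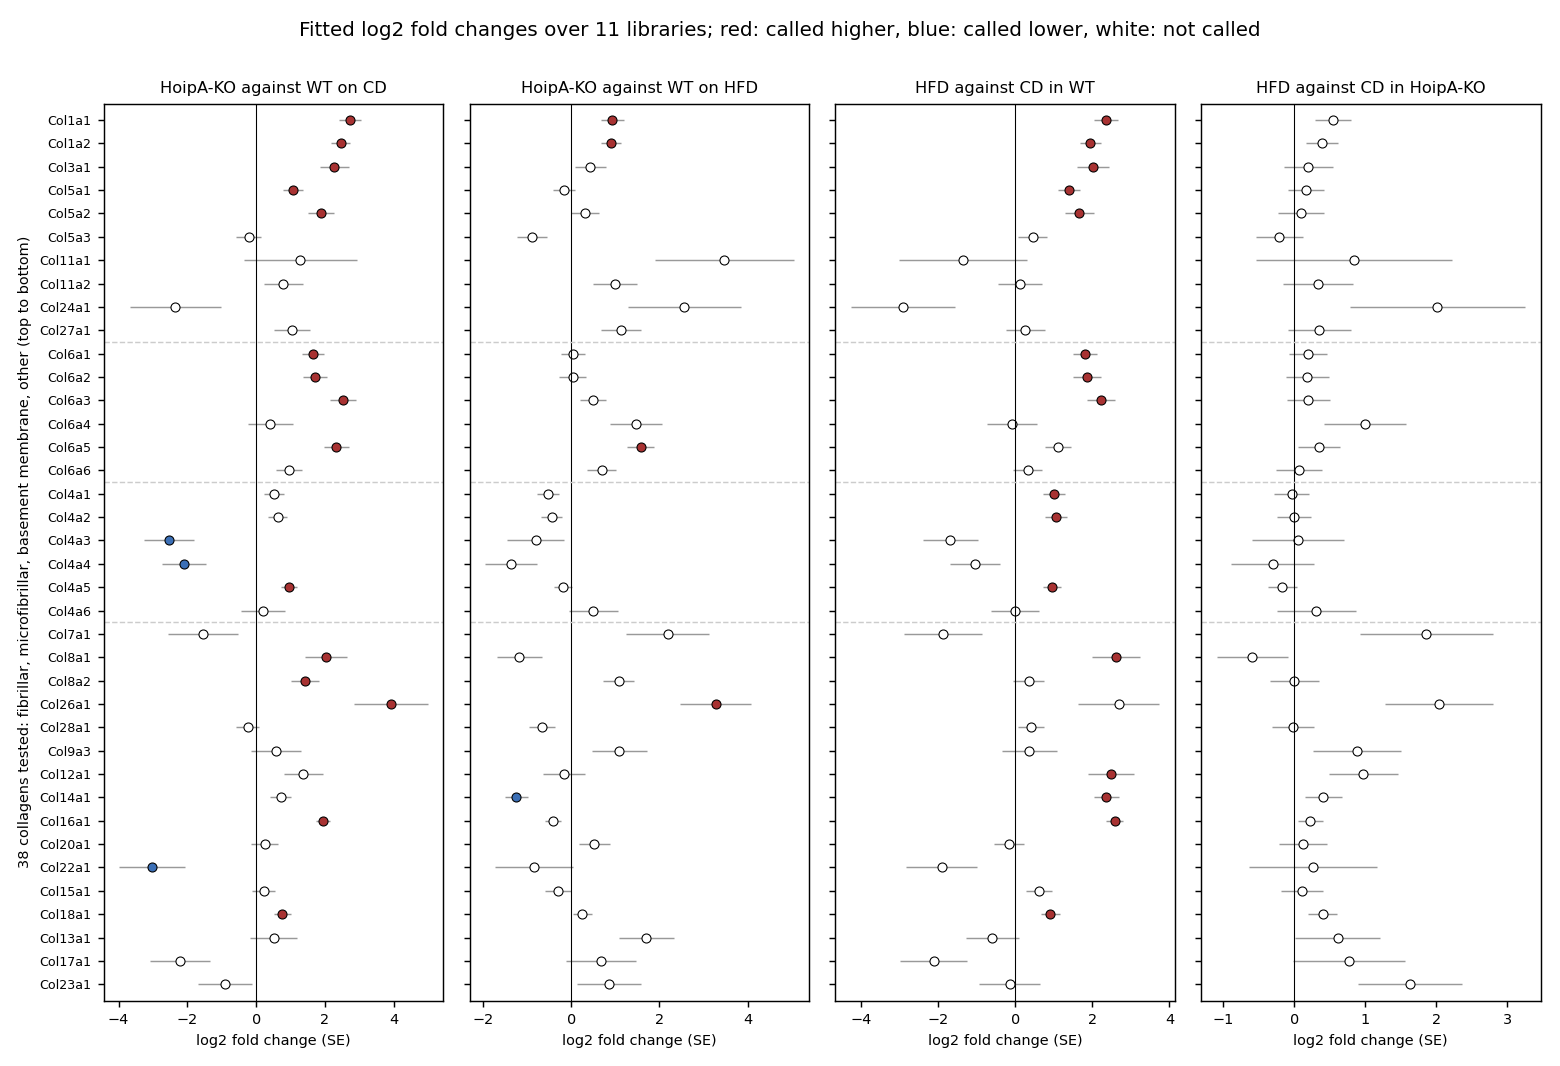
Log2 fold change with SE of the 38 tested collagens, by class, in each comparison over 11 libraries, with red points called higher and blue points called lower at an adjusted p under 0.05. The genotype comparison shows 15 red and 3 blue points on CD and 4 and 1 on HFD, the diet comparison 16 and 0 in WT, and in HoipA-KO all points are white.

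The third comparison asked how HFD changes the collagens of WT mice. Of 38 members, 16 were higher on HFD and none was lower, where 9.99% of all genes tested were called higher and 7.79% lower. With 12 libraries, 16 were higher and 1 lower, against 9.36% and 6.20%. The median log2 fold change was 0.54 over the members and -0.06 over all genes. The number of calls was 9 without WT HFD replicate 2 or WT HFD replicate 3, beside 1139 and 1029 of all genes, against 2776 over 11 libraries. In a fit to the WT libraries alone, 0 members and 0 genes were called (smallest adjusted p = 0.0805), with 19 members and 27.4% of all genes at an unadjusted p under 0.05.

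By class, 5 of 10 fibrillar chains, 3 of 6 basement membrane chains, 3 of 6 type VI chains and 5 of 16 others were higher. In the fibrillar class, Col1a1 differed by 2.35 ± 0.31, Col1a2 by 1.95 ± 0.27, Col3a1 by 2.02 ± 0.42, Col5a1 by 1.40 ± 0.30 and Col5a2 by 1.66 ± 0.38 (adjusted p = 0.00563 to 0.0198). All 3 WT HFD libraries were above all WT CD libraries for each of these genes. Calls of Col3a1 (without WT CD replicate 2, adjusted p = 0.0777), Col5a1 (without WT CD replicate 2 or WT HFD replicate 3, 0.0507 to 0.0551) and Col5a2 (without WT CD replicate 2, WT HFD replicate 2 or WT HFD replicate 3, 0.0618 to 0.106) depended on single libraries. In the type VI class, Col6a1, Col6a2 and Col6a3 rose by 1.81 ± 0.32, 1.85 ± 0.36 and 2.22 ± 0.37 (adjusted p = 0.00817, 0.0107 and 0.00677). Col6a5 was not called over 11 libraries (1.10 ± 0.34, adjusted p = 0.0527) and was over 12 (1.25, adjusted p = 0.0302), as well as without HoipA-KO CD replicate 2 or HoipA-KO CD replicate 3 (0.0284 and 0.0433). Without WT CD replicate 1 its log2 fold change was 1.61.

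Of the basement membrane chains, Col4a1, Col4a2 and Col4a5 were higher on HFD in WT mice. Col4a1 rose by 1.01 ± 0.29 and Col4a2 by 1.06 ± 0.28 (adjusted p = 0.0403 and 0.0315), and every WT HFD library was above every WT CD library. The Col4a1 call was lost when any library other than WT CD replicate 1 or HoipA-KO CD replicate 2 was left out of the 11 (adjusted p = 0.0519 to 0.188). That of Col4a2 was lost without WT CD replicate 2, any WT HFD replicate, HoipA-KO CD replicate 1 or HoipA-KO HFD replicate 3 (0.0506 to 0.0949). Col4a5 was at 28.6, 36.1 and 22.6 CPM on HFD, above all WT CD libraries (0.96 ± 0.23, adjusted p = 0.0240; 0.0709 to 0.117 without WT CD replicate 2 or WT HFD replicate 2). Col4a3 and Col4a4, at 2.13, 1.49 and 0.787 CPM and 7.04, 5.09 and 1.95 CPM on HFD, were not called (-1.68 ± 0.71 and -1.04 ± 0.64, adjusted p = 0.123 and 0.275), nor was Col4a6 (adjusted p = 1.00).

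Of the 4 called members with the largest rise in WT mice on HFD, 3 encode fibril-associated chains and 1 a network chain. Col8a1 reached 27.9, 51.7 and 61.9 CPM (2.61 ± 0.63, adjusted p = 0.0237) and Col12a1 37.6, 36.0 and 37.1 CPM (2.50 ± 0.60, adjusted p = 0.0233), with no overlap with WT on CD. Col14a1 rose by 2.37 ± 0.32 (adjusted p = 0.00563) and Col16a1, at 86.6, 76.7 and 85.5 CPM on HFD, by 2.58 ± 0.22 (adjusted p = 0.00247), the latter lost with 12 libraries (1.35, adjusted p = 0.114). Col18a1 was at 308, 349 and 327 CPM (0.91 ± 0.24, adjusted p = 0.0323). Calls of Col8a1 (without WT CD replicate 2, WT HFD replicate 2 or WT HFD replicate 3, 0.0651 to 0.119), Col12a1 (without WT CD replicate 1, WT HFD replicate 2 or WT HFD replicate 3, 0.0518 to 0.0604) and Col18a1 (without WT CD replicate 2 or any WT HFD replicate, 0.0557 to 0.180) depended on single libraries. Col15a1 and Col5a3, at 558, 699.5 and 674 CPM and 538, 697 and 550.3 CPM, overlapped with WT CD replicate 1. Without it their log2 fold changes were 1.64 and 1.58, and those of Col6a6, Col17a1 and Col24a1 were 1.16, -2.68 and -3.71. Without WT CD replicate 2 that of Col27a1 was 1.63.

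In HoipA-KO mice, no collagen was called between HFD and CD. edgeR called 0 of 38 members higher and 0 lower, where it also called 0.00% of all genes higher and 0.00% lower over 11 and 0.00% and 0.00% over 12 libraries. At an unadjusted p under 0.05 it gave 1 of 38 members, against 348 genes or 2.23% of those tested, and DESeq2 called 0 members and 7 genes. The 1 member was Col26a1, a little studied collagen, at 0.730, 0.658 and 1.03 CPM on CD and 6.33, 1.03 and 2.69 CPM on HFD (2.04 ± 0.76, unadjusted p = 0.0238, adjusted p = 1.00). The median was 0.25 over the members and -0.01 over all genes. Col1a1 and Col1a2 were higher in every HFD library than in every CD library, by 0.55 ± 0.25 and 0.39 ± 0.22, and were not called.

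The test of the difference between the genotype effects on HFD and on CD found 5 members with a lower log2 effect on HFD and none with a higher one, where 3.62% of all genes were called lower and 0.371% higher. With 12 libraries the counts were also 5 and 0, against 2.82% and 0.0646%. The difference was -1.80 ± 0.39 for Col1a1, -1.56 ± 0.34 for Col1a2, -2.03 ± 0.46 for Col6a3, -1.96 ± 0.39 for Col14a1 and -2.36 ± 0.28 for Col16a1 (adjusted p = 0.0383, 0.0403, 0.0460, 0.0312 and 0.0251). The same number is the difference between the diet effects in HoipA-KO and in WT mice. Over 12 libraries Col16a1 was not called (adjusted p = 0.425) and Col8a1 was (-3.36, adjusted p = 0.0376). For Col1a1, Col1a2, Col6a3 and Col14a1 the call was lost without WT CD replicate 2, WT HFD replicate 2 or 3, or any HoipA-KO library (adjusted p = 0.0503 to 0.138). For Col16a1 it was lost without WT HFD replicate 2, any HoipA-KO CD replicate or HoipA-KO HFD replicate 3 (0.0502 to 0.0774). The number of members called was 9, 0 and 1 without WT HFD replicates 1, 2 and 3, beside 916, 3 and 245 of all genes. It was 0 when any of the HoipA-KO CD replicates was left out (2, 2 and 4 of all genes). Without HoipA-KO HFD replicates 1, 2 and 3 it was 1, 2 and 0 (3, 584 and 2).

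Ratios between chains showed the shift in make-up within each library, where the scaling between libraries cancels. Col1a1 to Col4a1 was 0.145 to 0.230 in WT on CD, 0.359 to 0.517 in WT on HFD, 0.735 to 0.841 in HoipA-KO on CD and 1.01 to 1.40 in HoipA-KO on HFD, so that no group overlapped with another. The ratio was 4.29-fold higher in HoipA-KO on CD and 2.82-fold higher on HFD. Col5a3 to Col5a1 ran the other way, from 1.92 to 3.31 through 1.33 to 1.79 and 1.12 to 1.41 down to 0.819 to 1.11. Each pair of groups differing in 1 factor had p = 0.1 in a two-sided exact permutation test for both ratios, the smallest possible value. In contrast, Col4a1 to Col4a2 stayed within 1.35 and 1.67 in all 12 libraries, and overlapped between groups.

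**Figure D4:**
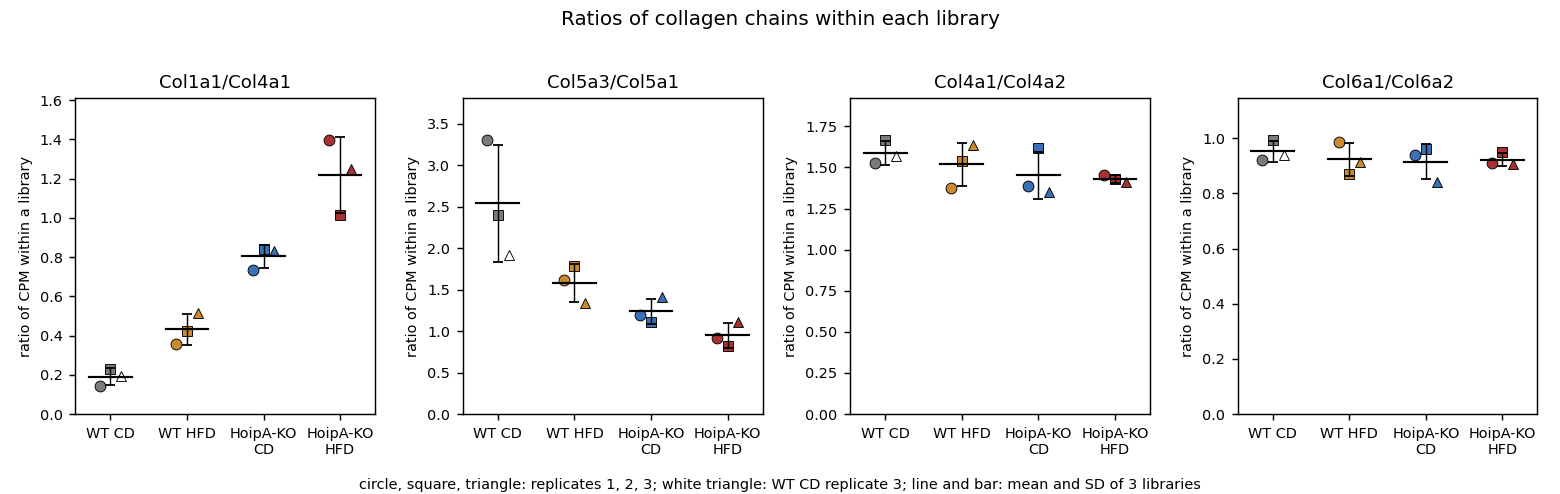
Ratio of TMM-normalised CPM of Col1a1 to Col4a1, Col5a3 to Col5a1, Col4a1 to Col4a2 and Col6a1 to Col6a2 in each library on linear axes, by group, with the same symbols as in the plot of class sums. The first ratio climbs without overlap from 0.145 to 0.230 in WT on CD to 1.01 to 1.40 in HoipA-KO on HFD, while the 2 ratios of co-assembled chains lie flat.

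In bulk tissue, more or fewer cells of a type and more or less RNA per cell cannot be told apart. Cell type markers differed between the groups as well, some lists higher and others lower in HoipA-KO. Of all genes, 18.1% were called higher in HoipA-KO on CD, 5.03% in HoipA-KO on HFD and 9.99% on HFD in WT. Over 12 libraries these shares were 15.8%, 0.588% and 9.36%. The 10 adipocyte markers summed to 13927 to 52678 CPM in WT on CD, 22833 to 30977 in WT on HFD, 6256 to 9640.0 in HoipA-KO on CD and 5676 to 8473 in HoipA-KO on HFD, and 9 of 10 were lower in HoipA-KO on CD and 10 of 10 on HFD (8 and 7 over 12 libraries). The 10 markers of progenitor fibroblasts summed to 838 to 1451, 1902 to 2710, 2101 to 2874 and 2760 to 2981 CPM, with 5 of 10 higher in HoipA-KO on CD, 2 higher and 1 lower on HFD, and 6 of 10 higher on HFD in WT (5, then 0 and 1, and 7 over 12 libraries). The 9 macrophage markers summed to 474 to 768, 2125 to 6215, 9923 to 13092 and 7751 to 11914 CPM, with 9 of 9 higher in HoipA-KO on CD and on HFD in WT, and 3 of 9 higher in HoipA-KO on HFD (9, 9 and 0 over 12 libraries). Of endothelial, mural, mesothelial and skeletal muscle markers, 4 of 8, 3 of 8, 1 of 8 and 1 of 5 tested were lower in HoipA-KO on CD (1, 2, 0 and 2 over 12 libraries). The shares of all genes lower there were 23.9% over 11 libraries and 19.0% over 12. In HoipA-KO on HFD, 3 of 8 endothelial, 2 of 8 mural and 1 of 5 muscle markers were lower (0 of each over 12 libraries by edgeR). The shares of all genes lower there were 10.1% and 2.37%. The endothelial markers summed to 998 to 1232 CPM in WT on HFD and 414 to 774 CPM in HoipA-KO on HFD. Mural markers summed to 707 to 1144 and 343 to 2846 CPM, and muscle markers to 12.7 to 27.3 and 2.96 to 153 CPM. For both lists HoipA-KO HFD replicate 1 was the highest library. At an unadjusted p under 0.05 by edgeR, 3 mural markers were higher and 3 lower in HoipA-KO on HFD. Of 6 Schwann cell markers, 2 were higher on CD and 1 on HFD (1 and 0 over 12 libraries). No marker of these types was at 0 in all libraries of a group, while 6 of the 13 epididymal ones were at 0 in HoipA-KO on CD. Col1a1 per unit of Pdgfra, a receptor that marks fibroblast progenitors, was 3.60 to 4.93 in WT on CD, 9.003 to 11.002 in WT on HFD, 6.60 to 12.6 in HoipA-KO on CD and 8.90 to 13.5 in HoipA-KO on HFD, with WT on CD below the others. The part of cell composition in the collagen differences was not tested.

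Among collagens at low levels, single libraries carried much of the signal. Col26a1 was at 0, 4 and 189 counts in WT on CD (0, 0.0917 and 3.52 CPM) and was called higher in HoipA-KO on CD over 11 libraries (3.91 ± 1.08, adjusted p = 0.0170), a size that depends on the prior count of the fit, while over 12 libraries it was at -0.66 and not called. On HFD it was at 0.314, 0.423 and 0.284 CPM in WT and 6.33, 1.03 and 2.69 CPM in HoipA-KO, without overlap (3.27 ± 0.81, adjusted p = 0.0294; 0.232 with 12 libraries and 0.0522 to 0.109 without any WT HFD replicate, HoipA-KO CD replicate 1, HoipA-KO HFD replicate 1 or HoipA-KO HFD replicate 3). Col22a1, a collagen of muscle-tendon junctions, was at 18, 45 and 7858 counts in WT on CD and 7, 1 and 6 counts in HoipA-KO on CD, and was called lower (-3.02 ± 0.96, adjusted p = 0.0302; 0.0575 to 0.155 without WT CD replicate 2 or any HoipA-KO CD replicate). With 12 libraries it was called lower both in HoipA-KO on CD (-9.04) and on HFD in WT (-7.93), and the 146 CPM of WT CD replicate 3 set that size.

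A further 6 members did not pass the filter: Col2a1, Col9a1, Col9a2, Col10a1, Col19a1 and Col25a1, known mainly from cartilage or nerve. Outside WT CD replicate 3 none of them exceeded 0.252 CPM, and Col2a1 was listed at 0 in all WT HFD libraries. In WT CD replicate 3, Col2a1 was at 30.3, Col20a1 at 27.6, Col6a4 at 14.7, Col25a1 at 2.40, Col9a1 at 2.32 and Col19a1 at 1.86 CPM. HoipA-KO HFD replicate 1 was the highest library for Col7a1 (10.8 CPM, next 5.80), Col23a1 (35.0, next 10.9) and Col11a1 (3.36, next 1.32), and WT CD replicate 2 shared the top of Col24a1 with it (4.17 and 4.15, next 0.804).

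**Figure D5:**
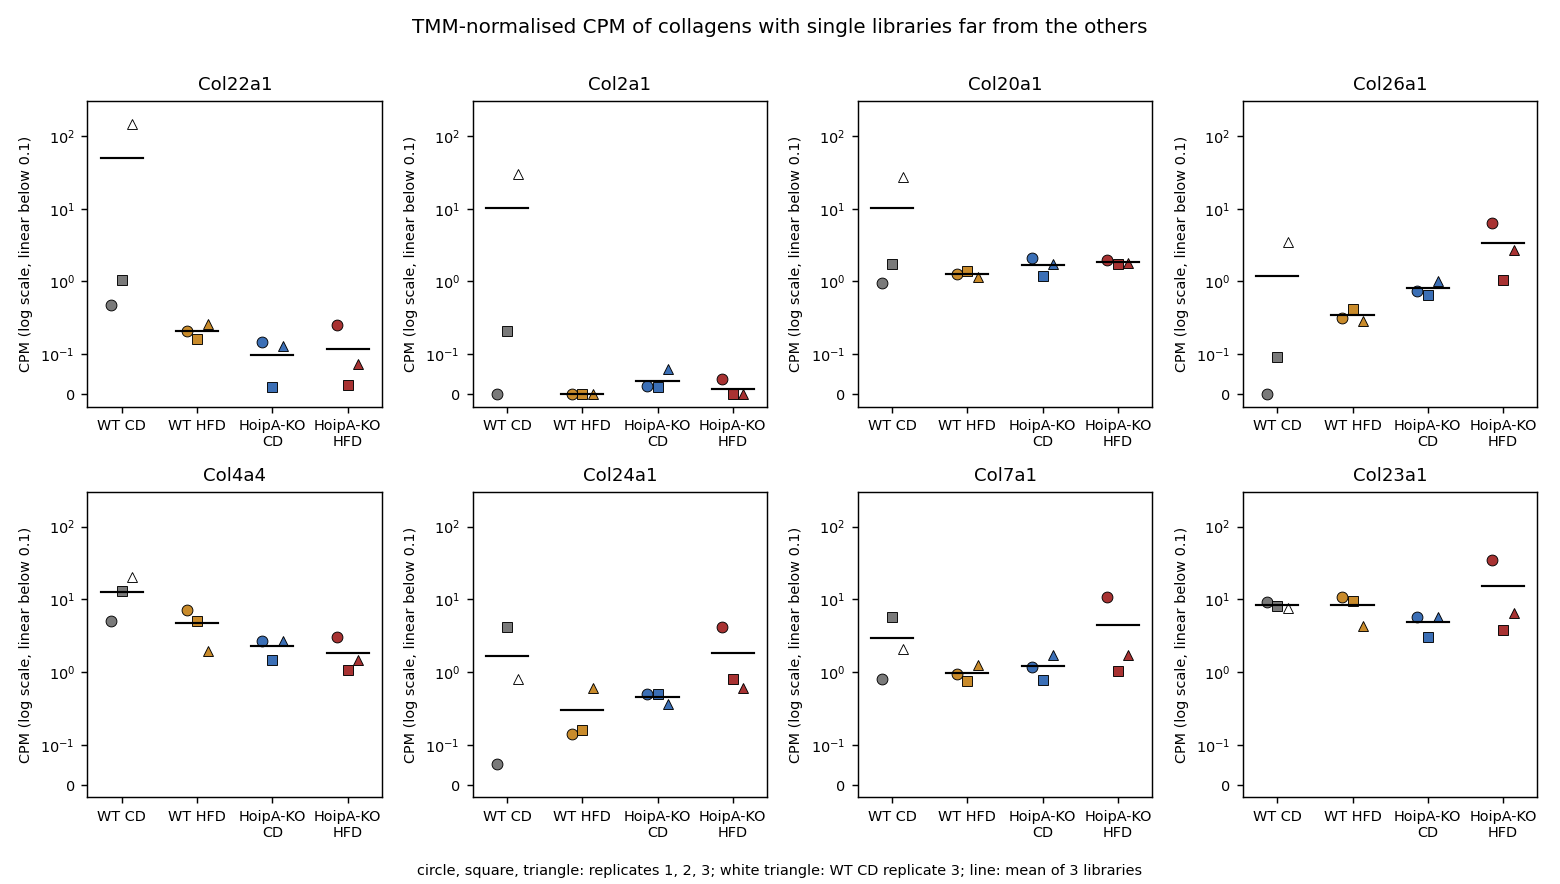
TMM-normalised CPM of 8 low collagens in each library, by group, on an axis that is logarithmic above 0.1 and linear below, with a line at the mean of 3 libraries and the same symbols as in the plot of class sums. WT CD replicate 3 is the top library for Col22a1 (146 CPM), Col2a1 (30.3) and Col20a1 (27.6), and HoipA-KO HFD replicate 1 for Col7a1 (10.8) and Col23a1 (35.0).

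Across all 5 comparisons, 22 of 38 members were called at least 1 time and 16 in none: Col4a6, Col5a3, Col6a4, Col6a6, Col7a1, Col9a3, Col11a1, Col11a2, Col13a1, Col15a1, Col17a1, Col20a1, Col23a1, Col24a1, Col27a1 and Col28a1. Among these, Col15a1 and Col5a3 were abundant and all others stayed at or below 52.1 CPM. On CD, the log2 fold changes of Col17a1 and Col24a1 were -2.77 and -3.17 without WT CD replicate 1. Those of Col11a2 and Col27a1 were 1.92 and 2.40 without WT CD replicate 2.

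Genes that act on collagen chains were counted in lists of their own. Of all genes, 18.1% were higher and 23.9% lower in HoipA-KO on CD, and 5.03% and 10.1% on HFD. For HFD against CD in WT the shares were 9.99% and 7.79%. Over 12 libraries the shares were 15.8% and 19.0%, 0.588% and 2.37%, and 9.36% and 6.20%, in the same order. Values named are over 11 libraries, and calls lost over 12 are given with their adjusted p. Of 18 genes of chain modification and folding, 6 were higher in HoipA-KO on CD and 3 on HFD, and 6 were higher on HFD in WT (8, 1 and 9 over 12 libraries). Fkbp10, a chaperone of procollagen, differed by 1.92 ± 0.18 on CD and 0.89 ± 0.15 on HFD (adjusted p = 0.00039 and 0.00851), and Colgalt1, which adds galactose to hydroxylysine, by 1.67 ± 0.27 on CD. P3h4, a partner of lysyl hydroxylation, was higher on HFD (0.82 ± 0.20; adjusted p = 0.0709 over 12 libraries), and Plod2, a lysyl hydroxylase, rose in WT on HFD (1.37 ± 0.22). Of 14 genes of secretion and propeptide processing, 5 were higher on CD, 1 was higher and 2 were lower on HFD, and 7 were higher in WT on HFD (5, then 1 and 1, and 6 over 12 libraries). Pcolce, the enhancer of C-propeptide cleavage, differed by 2.68 ± 0.33 on CD and 1.30 ± 0.27 on HFD, and Adamts14, an N-propeptidase, by 2.18 ± 0.42 on CD. Pcolce2 was lower in HoipA-KO on HFD (-1.66 ± 0.34) and rose by 2.80 ± 0.42 in WT on HFD, and Tango6 was lower in HoipA-KO on HFD as well (-0.57 ± 0.16; adjusted p = 0.160 over 12 libraries).

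Of 6 cross-linking enzymes, mostly lysyl oxidases, 4 were higher in HoipA-KO on CD, including Loxl2 (2.42 ± 0.39) and Loxl3 (1.70 ± 0.30). On HFD in WT 4 were higher, including Lox (1.92 ± 0.34) and Loxl2 (1.79 ± 0.38). Over 12 libraries the counts were 4 and 5. Of 14 fibril organisers, 7 were higher on CD, with Lum (3.33 ± 0.38) and Postn (2.73 ± 0.54) in front. On HFD in WT 8 were higher, with Lum (3.22 ± 0.38) and Fn1 (2.62 ± 0.28). Over 12 libraries the counts were 8 and 10. On HFD 2 were lower in HoipA-KO, Prelp (-2.10 ± 0.37) and Thbs1 (-1.27 ± 0.37), and over 12 libraries Thbs1 lost its call (adjusted p = 0.0910). Of 13 basement membrane partners, which include laminin chains, 1 was higher and 4 were lower on CD, and 5 were lower on HFD. Over 12 libraries 1 was higher and 1 lower on CD and 1 was lower on HFD. Lama2 was higher on CD (1.67 ± 0.30). Pxdn, the peroxidase that cross-links type IV collagen, was lower on CD and on HFD (-1.66 ± 0.29 and -1.65 ± 0.27). Lama3 was lower on CD (-1.54 ± 0.45), and Lamb3 was lower on HFD (-1.82 ± 0.48). Over 12 libraries Pxdn kept both calls, and Lama3 and Lamb3 lost theirs (adjusted p = 0.102 and 0.0772). Hspg2 (perlecan, 1.21 ± 0.28) and Lama2 (1.11 ± 0.29) were the 2 partners higher on HFD in WT.

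Of 12 tested receptors, 5 were higher and 1 lower on CD, 2 were lower on HFD, and 5 were higher on HFD in WT (4 and 1, 0 and 5 over 12 libraries). Lair1, an inhibitory receptor of leukocytes, and Mrc2, an uptake receptor, were higher on CD (3.52 ± 0.56 and 3.06 ± 0.20) and in WT on HFD (2.32 ± 0.52 and 3.50 ± 0.20). Itga1 was lower in HoipA-KO on both diets (-1.72 ± 0.41 and -1.34 ± 0.38) and Cspg4 on HFD (-1.10 ± 0.29). On HFD neither was called over 12 libraries (adjusted p = 0.0873 and 0.182). Of 10 collagen-degrading proteases, 8 were higher on CD, 5 on HFD and 7 in WT on HFD (8, 3 and 7 over 12 libraries). Ctsk, the collagenolytic cathepsin, differed by 5.64 ± 0.64 on CD and 2.37 ± 0.46 on HFD. Mmp13 differed by 4.29 ± 0.92 on CD and Mmp9 by 2.79 ± 0.63 on HFD. Ctsk and Mmp13 rose by 3.15 ± 0.56 and 3.14 ± 0.88 in WT on HFD. Of 12 transcription factors and signals of collagen genes, Tgfb1 alone was called on CD (2.35 ± 0.29) and on HFD (1.18 ± 0.24, with adjusted p = 0.0575 over 12 libraries), and Tgfb1 and Smad3 in WT on HFD (1.13 ± 0.27 and 0.72 ± 0.15). Over 12 libraries 1 was higher and 1 lower on CD, none was called on HFD, and 2 were higher on HFD in WT. None of these genes was called between HFD and CD in HoipA-KO. Lower genotype effects on HFD than on CD were called for Plod2, Fkbp10, Fn1, Lum, Mrc2 and Ctsk (-1.27 ± 0.28, -1.03 ± 0.22, -2.61 ± 0.35, -2.57 ± 0.46, -3.10 ± 0.24 and -3.26 ± 0.68), among 2 modification genes, 3 fibril organisers, 1 receptor and 1 protease in all. The share of all genes was 3.62%. Over 12 libraries Plod2 and Fkbp10 were not called (adjusted p = 0.0988 and 0.0643), and the counts were 0, 4, 1 and 1 beside 2.82%.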

How the data were processed

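GWAT RNA was sequenced in 12 pooled libraries (3 for each genotype and diet; Illumina stranded poly-A). The authors deposited estimated counts per gene from Salmon, which are expected counts and not whole for 21.9% of values, and normalised nothing in them. The submitters' processing notes name Trim Galore 0.6.7, STAR 2.7.10a, Salmon 1.5.2, MultiQC 1.11, DESeq2 1.38.1 and GRCm38. The authors' comparison tables (log2 fold changes, p-values and CPM) were not used here. Counts of the protein-coding table were rounded and tested with edgeR 4.0.16 (R 4.3.3, limma 3.58.1; filterByExpr, TMM, prior count 0.125, quasi-likelihood test of the group means, Benjamini-Hochberg over all genes tested, threshold 0.05). Rounding moves low counts most.

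WT CD replicate 3, absent from the deposited comparisons, was left out of the fit of 11 libraries and kept in the alternative of 12 and in all levels. Gene lengths are exon unions of GENCODE M21, and the largest overlap of a collagen with an exon on the other strand was 289 bases (Col4a3). Floor statements cover counting error only, whereas the SD and SE values include the spread between pools. The scripts were tested on simulated data.

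Values per library were given, in each class, for the 4 members of highest mean CPM, though not for each of them in every group. The same holds in each comparison for the 4 largest called rises and falls with a mean of at least 1 CPM. Other members are given by ranges, or by values where a sentence singles them out after they were seen. Of each list of pathway genes, the 2 largest called rises and falls of at least 1 CPM are named. Members, lists and tests were chosen with earlier results of these data known. Alternatives were 12 libraries, the groups compared alone, DESeq2 1.42.0 and its size factors, no TMM, other filters, all annotated genes, a replicate block and each library left out; pairs of WT CD libraries and the removal of 3 libraries that stand apart were added after seeing the data.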

Additional observations from a re-analysis of the deposited data

Results flagged for a closer look

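For 5 collagens, the genotype effect differed between the diets by the interaction term of edgeR's quasi-likelihood test: it was lower on HFD than on CD, with a log2 difference of -1.80 for Col1a1, -1.56 for Col1a2, -2.03 for Col6a3, -1.96 for Col14a1 and -2.36 for Col16a1. These are the differences described above, and each lost its call when certain single libraries were left out. For Col14a1 the 2 genotype effects had opposite signs, 0.71 ± 0.29 on CD, which was not called, and -1.25 ± 0.26 on HFD.

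The other entries come from WT CD replicate 3, the library left out of the tests over 11 libraries. It held 30.3 CPM of Col2a1, 27.6 CPM of Col20a1, 146 CPM of Col22a1, 2.40 CPM of Col25a1, 2.32 CPM of Col9a1 and 1.86 CPM of Col19a1. In the other 11 libraries the highest values were 0.206 CPM for Col2a1, 2.09 for Col20a1, 1.03 for Col22a1, 0.252 for Col25a1, 0.0459 for Col9a1 and 0.165 for Col19a1. The source of this signal was not tested.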

How the results depend on the processing

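The count of collagens called in HoipA-KO against WT on CD stayed within 1.5 times of 18 under every alternative (12 to 24), and that of HFD against CD in HoipA-KO stayed at 0. The members behind the first count changed. Of the 18, 12 were kept with the groups compared alone, 12 without HoipA-KO CD replicate 2 and 15 with WT CD replicates 2 and 3. Lower calls numbered 1, 0 and 7 there, against 3. All genes called numbered 3741, 5182 and 7137, against 6559. For HoipA-KO against WT on HFD, 5 members were called, against 2 over 12 libraries, 9 with the groups compared alone, 9 by DESeq2, 2 with WT CD replicates 1 and 3, 10 without the 3 libraries that stand apart, and 0 to 9 with 1 library left out. For HFD against CD in WT, 16 became 0 with the groups compared alone, 27 with WT CD replicates 2 and 3, 7 without the 3 libraries that stand apart, and 9 to 22 with 1 library left out. For the interaction, 5 members (623) became 16 by DESeq2 (2182) and 2 with no filter on low counts (441). They became 1 with WT CD replicates 1 and 3 (294) and 21 with WT CD replicates 2 and 3 (3255). With 1 library outside WT CD left out they numbered 0 to 9 (2 to 916). The removal of the 3 libraries that stand apart left a single WT CD library, and its counts are not given.

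Deviations from the group mean correlated at -0.379 to 0.541 between same-numbered libraries, above 0.1 in 6 of 15 pairs. Libraries of unlike number were not compared in this way, so whether the numbers mark anything shared was not tested. With a replicate block, 17, 5, 12, 0 and 2 members were called in the 5 comparisons in the order of the Results, beside 5758, 2887, 1738, 0 and 378 of all genes.

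Signs of members called before or after the change turned in HoipA-KO against WT on CD. Members called in neither setting also turned in other comparisons, such as Col26a1 (2.68 to -1.89) and Col9a3 (0.37 to -2.12) over 12 libraries for HFD against CD in WT, and Col9a3 on CD (0.57 to -1.91). In the first kind, Col26a1 was at -0.66 over 12 libraries, -1.19 with WT CD replicates 1 and 3 and -1.20 with replicates 2 and 3. Col20a1 was at -3.15 and -3.17 with these pairs, Col6a4 at -3.12 with replicates 2 and 3, and Col5a3 at 0.87 with replicates 2 and 3 and at -0.80 to 0.90 with 1 library left out, the latter without WT CD replicate 1. WT CD replicate 3 enters each of these settings except the removal of replicate 1, and the cause of the turns was not tested. Depth limits the members near the floor, of which 6 were not tested.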

Other observations

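Chains of the same collagen type did not keep 1 ratio throughout. Col1a2 to Col1a1 was 1.71 to 2.03 in WT on CD, 1.30 to 1.45 in WT on HFD, 1.37 to 1.66 in HoipA-KO on CD and 1.21 to 1.44 in HoipA-KO on HFD, so that WT on CD lay above the other groups. Col6a3 to Col6a1 was 0.261 to 0.417 and 0.359 to 0.491 in WT on CD and HFD, and 0.471 to 0.728 and 0.499 to 0.715 in HoipA-KO, higher in HoipA-KO than in WT on either diet without overlap. A two-sided exact permutation test gave p = 0.1 for each contrast without overlap, the smallest value that 3 libraries against 3 allow.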
